A study of Mus musculus with 30 samples.

Results

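The contractile programme of vascular smooth muscle was followed here as 41 genes, taken as every array probe whose annotated gene name equalled one of them. All 41 had at least 1 probe (72 probes). After probes without signal were filtered out, 40 of the 41 were measured, among 23268 gene names in all. Cacna1c, the pore-forming subunit of the L-type calcium channel, was the member that did not pass. Aortic RNA was taken from 2 genotypes, both with the strain label C57BL/6: wild type (WT) and uMT, which is deficient in B cells. In each genotype 3 arrays were run for unoperated mice (pre), for sham operation with saline around the aorta at day 7 and at day 42, and for periaortic 0.5 M CaCl2, a chemical model of abdominal aortic aneurysm, at day 7 and at day 42. That made 10 groups and 30 arrays. The tissue label reads abdominal aortic aneurysm for every sample, unoperated and sham included, and the age of the mice was not given in the sources used here. uMT mice lack mature B cells throughout life, so their sham and unoperated groups share that deficiency.

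Smooth muscle contraction starts when calcium enters through L-type channels and myosin light chain kinase (Mylk) phosphorylates the regulatory light chain (Myl9) of smooth muscle myosin (Myh11), which then pulls on actin filaments built largely of Acta2. Calponin (Cnn1), caldesmon (Cald1), transgelin (Tagln) and the tropomyosins (Tpm1, Tpm2) bind those filaments. Most of these genes are switched on by serum response factor (Srf) bound to CArG boxes in DNA, together with its cofactor myocardin (Myocd) or the related cofactors Mkl1 and Mkl2, which respond to actin assembly. In aneurysm, as in other injuries of the artery wall, loss of this programme from the media is a well-known feature.

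Between 36.6% and 61.8% of probes were well above background on an array, and the 75th percentile of intensity ran from 36.1 to 428. WT sham day 42 replicate 2 stood apart: it was the dimmest array on both counts, lay on a slide of its own with a different scan day, and correlated with its own group at 0.808 at the lowest, against 0.957 or more in the other groups. For WT at day 42 the counts of members and several members are given with and without it. The other gene lists are given only with it. Values of the main fit that are not marked as without it include it. Under 50% of probes were well above background on 6 arrays. Besides this array they were uMT pre replicate 2 and uMT sham day 42 replicates 2 and 3. uMT CaCl2 day 42 replicates 1 and 2 complete the set. The dim arrays below are these 6, and the dim array is WT sham day 42 replicate 2 alone. The other 29 arrays lay on 4 slides. All 6 uMT CaCl2 arrays shared 1 slide with no other group, so in uMT slide and treatment cannot be told apart. The WT CaCl2 day 7 and WT sham day 7 arrays had no slide in common, and a fit with slide as a fixed block links them through the WT sham day 42 arrays alone. The labels number replicates without saying that they are separate mice, so p-values measure the spread between these samples. Of the 40 measured members, 39 were well above background on all 30 arrays, so the markers of smooth muscle were present in every group.

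A member's level is its log2 signal, with the 75th percentile of that array set to 0, read from the gene's brightest probe. A change is the difference of 2 group means on that log2 scale ± its standard error, with n = 3 arrays in each group. "Called" means an adjusted p under 0.05 in limma with Benjamini-Hochberg adjustment over all 23268 gene names. Levels are not set against each other between genes.

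The mean level over the 40 members was steady in unoperated WT aorta, at 5.28, 5.24 and 5.24. WT sham arrays at day 7 gave 4.88, 4.61 and 4.74. WT sham arrays at day 42 gave 4.97, 4.18 and 5.03, the low value being the dim array. CaCl2 brought every WT array below every WT sham array: 3.34, 2.57 and 2.56 at day 7, and 3.67, 3.37 and 2.72 at day 42. Among uMT arrays the unoperated values were 4.89, 5.10 and 4.96, the sham values 4.62, 4.51 and 4.68 at day 7, and 4.69, 4.65 and 5.08 at day 42. uMT CaCl2 arrays at day 42 gave 2.78, 3.50 and 4.01, all below the sham arrays. At day 7 the uMT CaCl2 arrays split, with replicate 1 at 2.42 and replicates 2 and 3 at 4.25 and 4.62. The first lay below every WT CaCl2 array and the other pair near or within the sham range. In bulk tissue, fewer smooth muscle cells and less contractile RNA per cell cannot be told apart, and this holds for every result that follows.

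**Figure D1:**
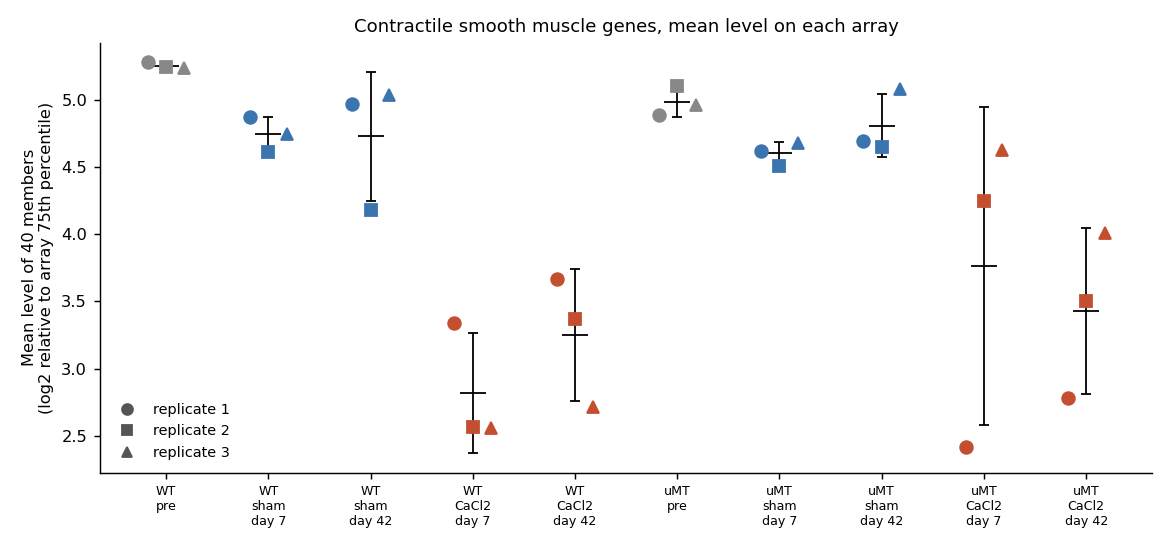
Mean log2 level of the 40 measured contractile genes on each array (y axis) for the 10 groups (x axis). Points are arrays, with a symbol for each replicate number, and black bars are the group mean ± SD. The WT CaCl2 arrays sit between 2.56 and 3.67, below the sham arrays at 4.18 to 5.03, and the uMT CaCl2 day 7 arrays spread from 2.42 to 4.62.

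In WT aorta 7 days after CaCl2, 30 of 40 members were lower than in sham and 1 was higher, against 6.59% of all genes called in either direction, 3.61% called lower and 2.98% called higher. The median change of the members was -2.17, beside 0.09 over all genes. The falls covered the actin and myosin genes (4 of 5), thin filament proteins (6 of 7), the phosphorylation and relaxation enzymes (5 of 6), filament crosslinkers (8 of 8), adhesion genes (3 of 5), channels (2 of 3) and 2 of the 4 SRF and myocardin regulators. Neither of the 2 receptor and G protein genes was called. In 38 of the 40 the CaCl2 and sham arrays did not overlap, which was so for 51.9% of all genes.

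Acta2, the main actin of vascular smooth muscle (probe on chromosome 19, 34316060 to 34316119, minus strand, mm9), stood at 9.55, 9.45 and 9.75 on the sham arrays and at 8.21, 7.04 and 7.30 after CaCl2. It fell by 2.07 ± 0.53 (adjusted p = 0.0204), a 4.19-fold difference. Myh11, the myosin heavy chain that defines differentiated smooth muscle, read 6.58, 6.54 and 7.01 in sham and 4.87, 3.65 and 3.34 after CaCl2. Its change was -2.76 ± 0.68 (adjusted p = 0.0170), the largest among the actins and myosins. In both genes all 3 CaCl2 arrays lay below all 3 sham arrays, and replicate 1 was the highest of the 3. The light chains Myl9 and Myl6 fell by 1.78 ± 0.45 and 1.05 ± 0.29 (adjusted p = 0.0186 and 0.0285). Actg2, the enteric smooth muscle actin, differed by -1.71 ± 0.58 and was not called (adjusted p = 0.0797).

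Of the thin filament proteins, Cnn1 read 8.80, 8.40 and 8.66 in sham and 6.85, 5.48 and 5.47 after CaCl2, a fall of 2.69 ± 0.60 (adjusted p = 0.0100). Lmod1, a leiomodin that starts actin filaments in smooth muscle, went from 1.91, 1.24 and 1.69 to -0.30, -1.26 and -1.95, a change of -2.78 ± 0.75 (adjusted p = 0.0270) and the largest in its role. Tagln is the exception. Its arrays stood at 9.59, 9.57 and 9.97 in sham and 8.83, 8.03 and 7.79 after CaCl2, without overlap, but the change of -1.49 ± 0.52 was not called (adjusted p = 0.0879). Tpm2, Tpm1, Smtn (smoothelin) and Cald1 fell by 2.67, 2.24, 2.17 and 1.75.

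The enzymes that set myosin phosphorylation fell as a block apart from Ppp1r12b. Ppp1r14a, the smooth muscle inhibitor of myosin phosphatase also called CPI-17, read 5.68, 5.06 and 4.74 in sham and 2.76, 1.51 and 1.65 after CaCl2. This fall of 3.19 ± 0.56 (adjusted p = 0.00312) was 9.10-fold. Mylk fell by 2.55, Hspb6, a small heat shock protein phosphorylated during relaxation, by 2.50, the cGMP-dependent kinase Prkg1 by 2.17 and the phosphatase targeting subunit Ppp1r12a by 1.66. Ppp1r12b, a second targeting subunit, differed by -1.57 ± 0.53 (adjusted p = 0.0766).

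All 8 intermediate filament and crosslinker genes were lower, between -2.95 and -1.14. Des, the intermediate filament desmin, fell most: 2.74, 2.16 and 2.19 in sham against -0.16, -0.94 and -0.67 after CaCl2, a change of -2.95 ± 0.61 (adjusted p = 0.00728). Synpo2, Ldb3, Nexn, Csrp1, Actn1, Flna and Synm followed at -2.75, -2.63, -2.17, -2.14, -2.03, -1.40 and -1.14.

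Among genes that anchor the cell to matrix, Npnt, the secreted integrin ligand nephronectin, changed more than any other member. Its levels were 2.96, 2.67 and 2.96 in sham and -0.07, -1.10 and -1.31 after CaCl2. The change of -3.69 ± 0.81 (adjusted p = 0.00887) was 12.9-fold. Its integrin receptor subunit Itga8 fell by 2.89 ± 0.85 (adjusted p = 0.0417) and the laminin receptor subunit Itga7 by 2.29 ± 0.47 (adjusted p = 0.00683). The focal adhesion proteins Vcl (vinculin) and Parva differed by less, -1.01 ± 0.42 and -0.64 ± 0.20, and were not called (adjusted p = 0.168 and 0.0516).

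**Figure D2:**
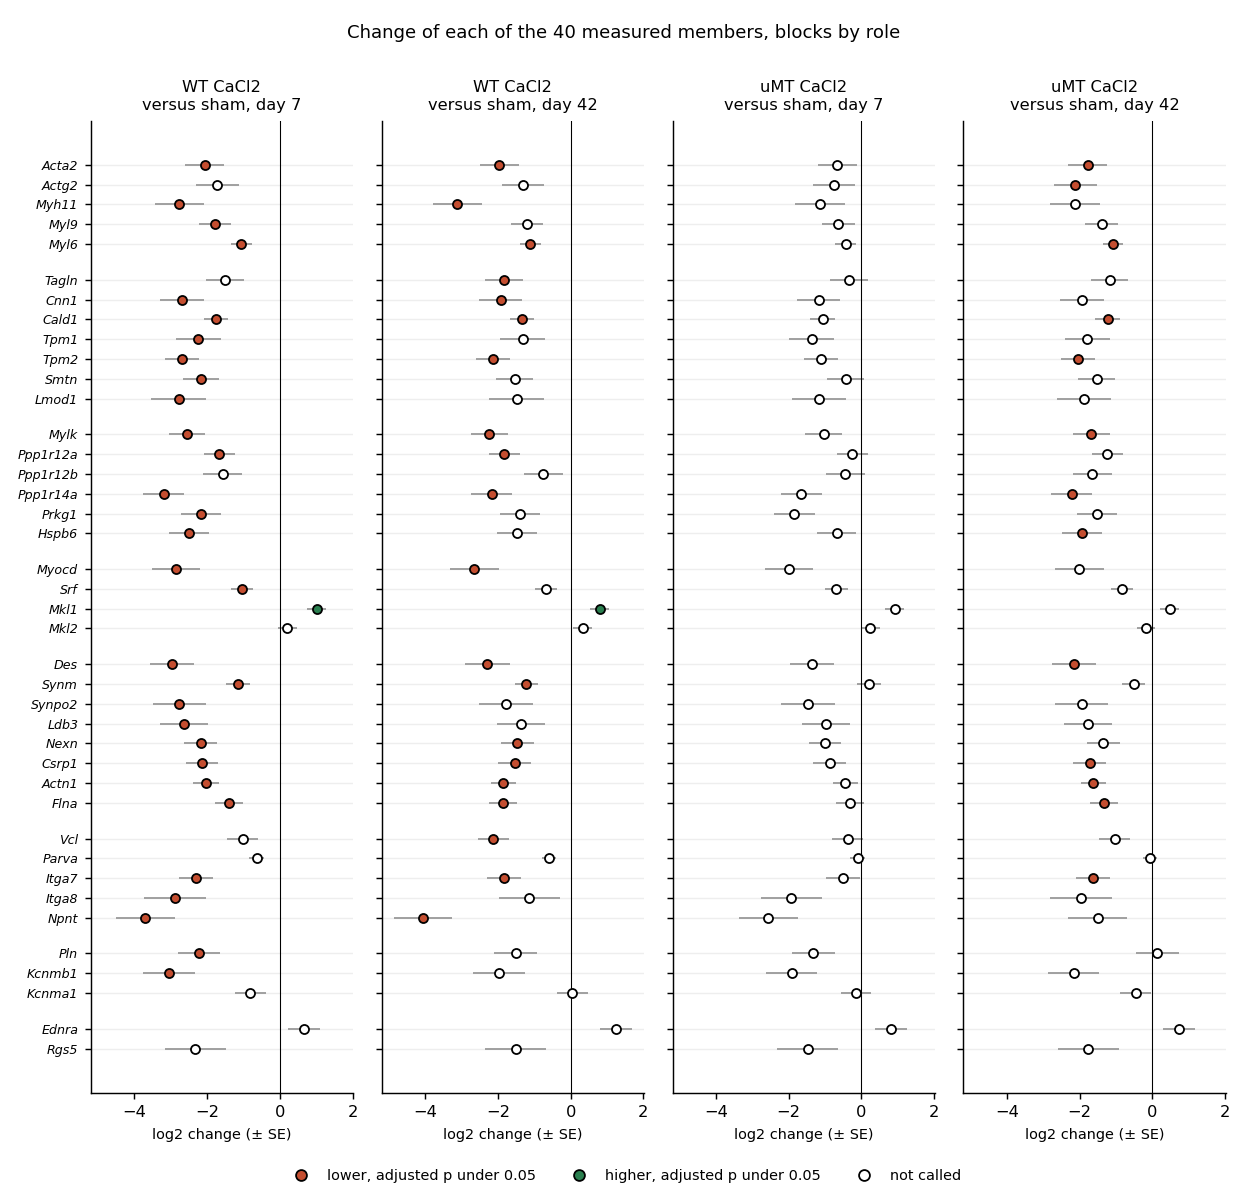
Log2 change ± SE (x axis) of each of the 40 measured members (y axis, blocks by role in the order actins and myosin, thin filament, myosin phosphorylation, SRF and myocardin regulators, crosslinkers, matrix adhesion, channels, receptors) in the 4 comparisons of CaCl2 with sham. Filled red points were called lower, filled green points higher and open points were not called. Mkl1 is the green point, at 1.01 and 0.80 in WT.

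The regulators did not move as 1 group. Myocd, the cofactor restricted to smooth and cardiac muscle, read 2.87, 2.72 and 3.05 in sham and 0.74, 0.02 and -0.69 after CaCl2. It fell by 2.85 ± 0.67 (adjusted p = 0.0129), a 7.23-fold difference. Srf, the DNA-binding partner, fell by less: 2.62, 2.07 and 1.87 against 1.35, 1.03 and 1.09, a change of -1.03 ± 0.30 (adjusted p = 0.0417). A second Srf probe pointed down without a call (-0.47 ± 0.23, adjusted p = 0.268).

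Mkl1 was the only member called higher. Its probe (chromosome 15, 80842711 to 80842770, minus strand, mm9) read 2.50, 2.43 and 2.87 in sham and 3.55, 3.80 and 3.49 after CaCl2, so that every CaCl2 array lay above every sham array. It rose by 1.01 ± 0.26 (adjusted p = 0.0201), a 2.02-fold difference. The other kept Mkl1 probe, dimmer, gave 0.34 ± 0.44 (adjusted p = 0.738), and with the probes averaged the change was 0.68 ± 0.30 (limma, adjusted p = 0.190). Mkl2, its paralog, stood at 3.44, 3.40 and 3.19 in sham and 3.64, 3.80 and 3.21 after CaCl2, with overlap, a change of 0.21 ± 0.26 (adjusted p = 0.720).

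Of the calcium handling genes, Kcnmb1, the smooth muscle beta subunit of the large-conductance potassium channel, read 2.68, 2.56 and 2.53 in sham and 0.22, -0.95 and -0.65 after CaCl2, a fall of 3.05 ± 0.71 (adjusted p = 0.0123). Kcnma1, the pore of the same channel, differed by -0.81 ± 0.42 and was not called (adjusted p = 0.290). Phospholamban (Pln), which restrains the calcium pump of the sarcoplasmic reticulum, was above background on 3 of 3 sham arrays and 0 of 3 CaCl2 arrays. Its call (limma, adjusted p = 0.0241) is that of the measured means, -5.73 after CaCl2 and -3.51 in sham. As a bound, Pln was at least 2.24-fold lower. Its probe was well above background on 14 of 30 arrays and was kept through groups where it was high. Its call, counted among the 30, is therefore no separate support. Ednra, the endothelin A receptor, lay above sham by 0.68 ± 0.44 and Rgs5, a regulator of G protein signalling of mural cells, below it by 2.32 ± 0.84, and neither was called (adjusted p = 0.428 and 0.1004). Cacna1c was above background on 8 of 30 arrays in all, 0 of 3 in WT sham day 7 and 0 of 3 in WT CaCl2 day 7.

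The number of calls in this comparison rests on the estimate of spread. With slide fitted as a random block the 40 members kept their median (-2.04) but 0 were called, and without the dim array alone on its slide the same fit called 39. Leaving out 1 array at a time gave between 6 and 38 calls, the fewest without WT CaCl2 day 7 replicate 3 and the most without WT sham day 42 replicate 2. Here and below, counts from alternative fits that carry no share of all genes show only how the calls depend on the fit.

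**Figure D3:**
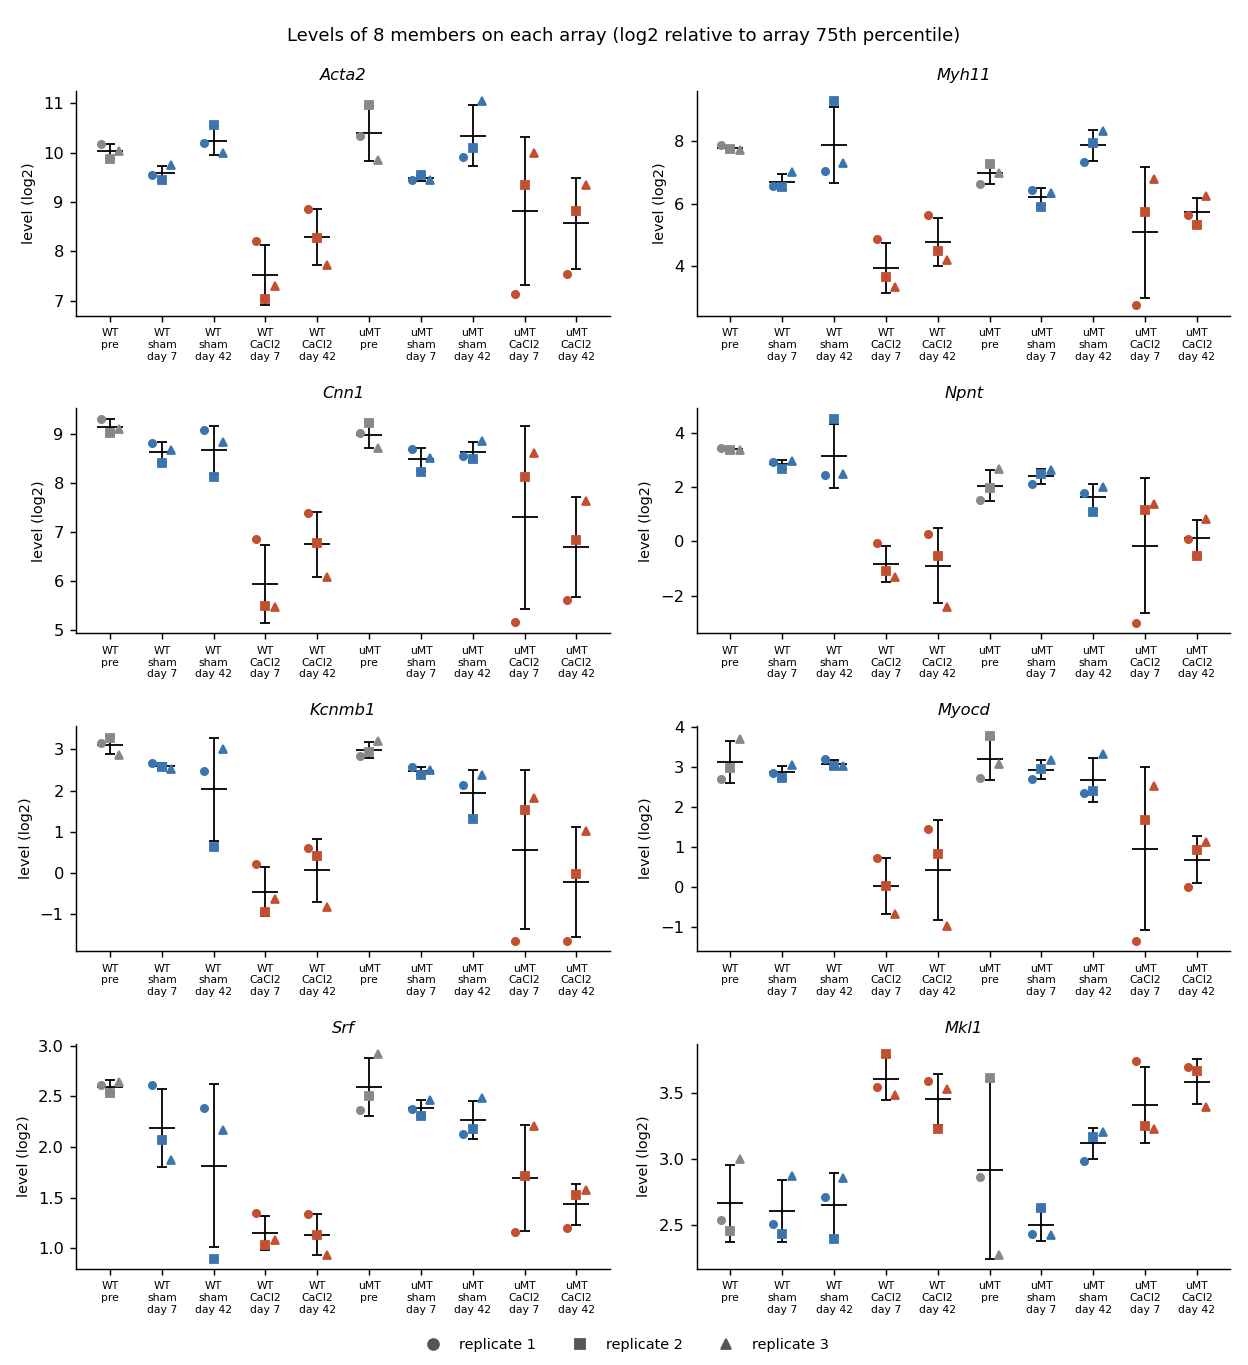
Levels of 8 members (y axes, log2 relative to the array's 75th percentile) on every array of the 10 groups (x axes). Points are arrays, with a symbol for each replicate number, and black bars are the mean ± SD. Acta2, Myh11, Cnn1, Npnt, Kcnmb1, Myocd and Srf are lower and Mkl1 higher on the WT CaCl2 day 7 arrays than on the sham arrays of that day.

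CArG boxes were looked for in the promoter sequences of RefSeq genes (GRCm38.p6, 250 bases before to 50 after each start), because Srf acts through them. The pattern was CC, then 6 bases that are each A or T, then GG, which reads the same in form on both strands. Sequences were found for 34 members, Mkl1 and Mkl2 under their current symbols Mrtfa and Mrtfb. No entry was used for Actg2, Myh11, Tagln, Myocd, Nexn, Parva and Itga7. The box was present in 5 of 34 (14.7%), beside 1.81% of the 27025 genes with a promoter sequence. Many members were already known as targets of Srf, so an excess was built into the list. Whether the box bears on the falls was not tested. Stretches of 100 bases from these 5 are shown 5′ to 3′ on the gene's own strand, with the box in capitals. They lie at chr17:46556163-46556262 (Srf, minus strand), chr10:128493010-128493109 (Myl6, minus), chr14:34588682-34588781 (Ldb3, minus), chr2:156775264-156775363 (Myl9, plus) and chr14:20929148-20929247 (Vcl, plus).
Srf: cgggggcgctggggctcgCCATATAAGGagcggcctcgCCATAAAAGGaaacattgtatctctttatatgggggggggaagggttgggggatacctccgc
Myl6: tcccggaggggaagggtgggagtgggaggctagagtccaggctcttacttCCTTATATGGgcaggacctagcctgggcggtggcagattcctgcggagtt
Ldb3: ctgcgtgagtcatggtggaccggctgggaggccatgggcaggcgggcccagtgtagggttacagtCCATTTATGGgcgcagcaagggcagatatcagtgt
Myl9: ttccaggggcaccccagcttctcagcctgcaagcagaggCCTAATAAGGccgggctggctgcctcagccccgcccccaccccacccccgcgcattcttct
Vcl: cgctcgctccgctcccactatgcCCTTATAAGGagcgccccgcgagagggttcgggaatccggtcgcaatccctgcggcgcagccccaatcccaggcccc
Srf carried 2 boxes, at positions -82 and -62 from its own start, and the other 4 showed 1 each in these stretches, at -50 (Myl6), -35 (Ldb3), -161 (Myl9) and -227 (Vcl). The pattern in these windows was therefore present in a regulator that fell by 1.03 and in Myl6, Myl9 and Ldb3, which fell by 1.05, 1.78 and 2.63, as well as in Vcl, which was not called at day 7. These letters were not in the windows of Acta2, Cnn1 or Npnt. Boxes that depart from the strict pattern or lie outside the windows would be missed, so this does not show that these genes lack one.

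At day 42 in WT, 20 members were lower than in sham and 1 was higher (10.4% of all genes called in either direction, 3.59% lower and 6.79% higher), with a median change of -1.51 beside 0.05 over all genes. Of the 20, 18 were among the 30 lower at day 7, and the further 2 were Tagln and Vcl. The 12 lower at day 7 and not called at day 42 were Hspb6, Itga8, Kcnmb1, Ldb3, Lmod1, Myl9, Pln, Prkg1, Smtn, Srf, Synpo2 and Tpm1. The 2 comparisons have different sham arrays. Calls were made in 3 of 5 actin and myosin genes, 4 of 7 thin filament, 3 of 6 phosphorylation, 6 of 8 crosslinker and 3 of 5 adhesion genes, and in 0 of 3 channels. CaCl2 and sham arrays did not overlap in 27 members, beside 19.8% of all genes.

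Npnt again had the largest change. Its sham arrays read 2.45, 4.54 and 2.50 and its CaCl2 arrays 0.28, -0.54 and -2.42, a fall of 4.06 ± 0.81 (adjusted p = 0.00261). The high sham value belongs to the dim array, and without it the fall was 3.37 ± 0.86 (adjusted p = 0.0153). A second Npnt probe gave -1.98 ± 0.71 (adjusted p = 0.0733).

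Myh11 read 7.05, 9.29 and 7.30 in sham and 5.63, 4.49 and 4.19 after CaCl2, a fall of 3.11 ± 0.68 (adjusted p = 0.00539). Acta2 stood at 10.19, 10.56 and 9.99 against 8.86, 8.27 and 7.73, a change of -1.96 ± 0.53 (adjusted p = 0.0191). Tagln went from 10.28, 11.98 and 10.16 to 9.28, 8.79 and 8.87, a fall of 1.83 ± 0.52 (adjusted p = 0.0257). In these 3 genes the dim sham array was the highest of its group, and without it Tagln was not called (-1.24 ± 0.52, adjusted p = 0.115).

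The dim array was the lowest of its group in 28 of the 40 members, against 47.8% of all genes, and Cnn1, Des and Kcnmb1 were among them. Cnn1 read 9.07, 8.12 and 8.82 in sham and 7.39, 6.77 and 6.08 after CaCl2, a change of -1.92 ± 0.60 (adjusted p = 0.0416). Des read 3.28, 0.90 and 3.23 against 0.70, 0.09 and -0.24 and fell by 2.29 ± 0.61 (adjusted p = 0.0179). For Kcnmb1 the sham arrays were at 2.473, 0.614 and 2.9999 and the CaCl2 arrays at 0.60, 0.40 and -0.83, a difference of -1.97 ± 0.71 that was not called (adjusted p = 0.0752). Without the dim array Kcnmb1 was called (-2.68 ± 0.73, adjusted p = 0.0220), as were Lmod1, Tpm1, Srf and Rgs5.

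Mylk led the phosphorylation enzymes at day 42. It read 4.01, 4.45 and 3.85 in sham and 2.48, 1.96 and 1.16 after CaCl2, a fall of 2.23 ± 0.50 (adjusted p = 0.00654). Tpm2 led the thin filament proteins, from 7.96, 7.32 and 7.99 to 5.94, 5.44 and 5.46, a fall of 2.14 ± 0.47 (adjusted p = 0.00494). Both genes kept all CaCl2 arrays below all sham arrays.

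Myocd stood at 3.20, 3.02 and 3.02 in sham and at 1.44, 0.83 and -0.98 after CaCl2, a fall of 2.65 ± 0.67 (adjusted p = 0.0131). Srf read 2.39, 0.90 and 2.17 against 1.34, 1.13 and 0.93 and was not called (-0.68 ± 0.30, adjusted p = 0.147). Mkl1 read 2.71, 2.39 and 2.86 in sham and 3.60, 3.23 and 3.54 after CaCl2, a rise of 0.80 ± 0.26 (adjusted p = 0.0487). That call held in only 13 of 45 alternative settings and was lost without the dim array (0.67 ± 0.27, adjusted p = 0.101), and in the fit over all probes neither Mkl1 probe was called at this day. Mkl2 read 3.69, 2.64 and 3.34 against 3.36, 3.51 and 3.79, a difference of 0.33 ± 0.26 (adjusted p = 0.389). Myocd and Mkl1 thus lay on opposite sides of sham at both days.

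Without the dim array 30 members were called lower at day 42 and 0 higher, with a median of -1.82. Fitting only the 2 groups compared gave 0 calls, and on the 1 slide that held 3 CaCl2 arrays and 1 sham array 12 were lower.

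In uMT aorta at day 7, 0 members passed the adjusted threshold in limma, beside 0.894% of all genes called in either direction (0.391% lower and 0.503% higher). An unadjusted p under 0.05 in limma was seen for 14 members, beside 3533 of all 23268 genes. The median change was -0.81, with 36 of 40 below 0. In 14 members the CaCl2 and sham arrays did not overlap, against 34.9% of all genes. The 3 CaCl2 arrays differed more from each other than in any other group: the median SD of a member was 1.35, against 0.14 to 0.66 in the other 9 groups, while the median over all genes in this group was 0.36.

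Most of the spread came from replicate 1: the median differences from the sham mean were -2.28, -0.38 and 0.12 on replicates 1, 2 and 3. Acta2 read 9.44, 9.55 and 9.45 in uMT sham and 7.13, 9.34 and 9.99 after CaCl2 (-0.66 ± 0.53, adjusted p = 0.601). Myh11 read 6.43, 5.91 and 6.34 against 2.75, 5.73 and 6.79 (-1.14 ± 0.68, adjusted p = 0.449). Tagln read 9.29, 9.56 and 9.44 against 7.53, 9.62 and 10.13 (-0.33 ± 0.52, adjusted p = 0.827). In each of these replicate 1 was far below sham while replicate 3 was above every sham array.

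Cnn1 stood at 8.69, 8.22 and 8.51 in sham and 5.17, 8.11 and 8.60 after CaCl2 (-1.18 ± 0.60, adjusted p = 0.357). Npnt stood at 2.11, 2.49 and 2.63 against -3.02, 1.17 and 1.40 (-2.56 ± 0.81, adjusted p = 0.120). Kcnmb1 stood at 2.57, 2.37 and 2.49 against -1.66, 1.53 and 1.81 (-1.92 ± 0.71, adjusted p = 0.186). For Npnt and Kcnmb1, unlike Cnn1, all 3 CaCl2 arrays lay below all 3 sham arrays, and replicate 1 was still the lowest.

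Myocd read 2.70, 2.96 and 3.17 in sham and -1.35, 1.67 and 2.54 after CaCl2 (-1.99 ± 0.67, adjusted p = 0.144). Srf read 2.38, 2.31 and 2.46 against 1.16, 1.72 and 2.21 (-0.69 ± 0.30, adjusted p = 0.279). Mkl1 read 2.43, 2.63 and 2.42 against 3.74, 3.25 and 3.23 (0.92 ± 0.26, adjusted p = 0.0859), so it was above sham on all 3 CaCl2 arrays. Mkl2 read 3.09, 3.20 and 2.96 against 3.49, 3.63 and 2.84 (0.24 ± 0.26, adjusted p = 0.722).

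Replicate 1 was the lowest of the 3 arrays in 36 of 40 members, whereas 34.0% of all genes had their lowest value on it. It lay below every uMT sham array in 36 members, against 39.2% of all genes, with a median difference from the sham mean of -2.28 and a largest of -5.43 for Npnt. Replicate 2 lay below every sham array in 28 members, against 38.1% of all genes, and its median difference from the sham mean over the 40 members was -0.38. Replicate 3 lay below in 13 members, a smaller share than the 39.7% of all genes, above in 19 and within the sham range in 8. Its median difference was 0.12, beside -0.02 over all genes. The share of all genes above every sham array is not given, so the 19 are not read as a rise. The largest excess in replicate 3 was 0.97, in Ppp1r12b.

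**Figure D4:**
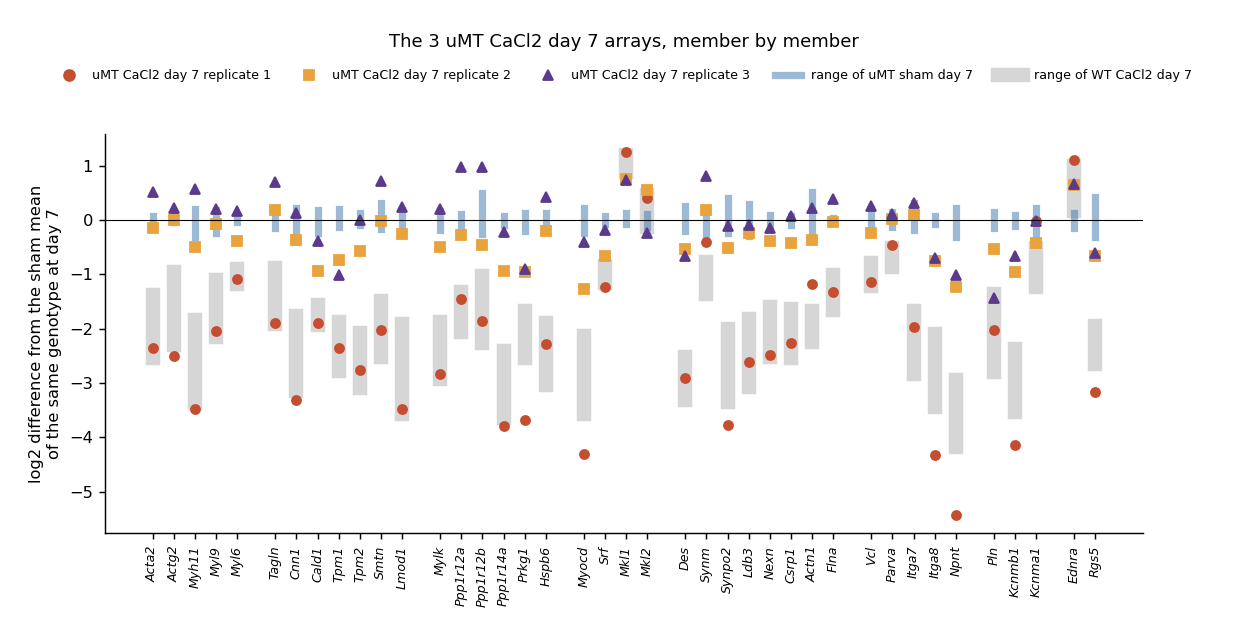
Difference of each uMT CaCl2 day 7 array from the uMT sham day 7 mean (y axis, log2) for the 40 members (x axis, blocks by role). Blue bars span the uMT sham arrays and grey bars the WT CaCl2 day 7 arrays, the latter drawn against the WT sham mean. Replicate 1 lies below every uMT sham array in 36 members, replicate 2 in 28 and replicate 3 in 13, against 39.2%, 38.1% and 39.7% of all genes.

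Markers of other tissues moved with that array. The mean level of 12 measured skeletal muscle genes (of 18 listed) was 0.54 on replicate 1 and -1.47 and -1.27 on replicates 2 and 3, with uMT sham arrays between -1.21 and -0.78. Their summed linear level, led by the bright genes, did not stand out: it was 43.0 on replicate 1, 38.1 and 55.8 on the others and 93.7 to 114 in sham. The 7 measured neutrophil genes averaged 0.42 on replicate 1 against -2.59 and -1.67, and the 14 macrophage genes 3.96 against 3.26 and 2.75. The part of these cells in the low contractile values was not tested. Leaving out replicate 1 gave a median member change of -0.12 with 0 called, and leaving out the dim WT sham array gave 5 calls, with Cald1, Npnt and Prkg1 lower and Mkl1 and Ednra higher.

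Tpm1 shows the same split inside 1 gene. Tropomyosin 1 is spliced into striated and smooth muscle forms, and 6 probes for it were kept. The brightest read 5.26, 4.94 and 4.97 in uMT sham day 7 and 2.71, 4.32 and 4.04 after CaCl2. A pair of overlapping probes annotated to the transcript NM_001164248 (chromosome 9, from 66875782 to 66875855, mm9) went the other way on replicate 1. The first read 2.59, 0.22 and 0.04 against 0.17, 0.24 and 0.32 in sham, and the second 2.10, -0.38 and -0.51 against -0.49, -0.33 and -0.24. On this array the skeletal muscle, neutrophil and macrophage means were all above those of replicates 2 and 3 of its own group. Which form these probes read, and where their signal came from, was not tested. No Tpm1 probe was called in this comparison.

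At day 42 in uMT, 13 members were lower than in sham and 0 higher (6.33% of all genes called in either direction, 1.71% lower and 4.62% higher), with a median of -1.63 beside -0.04 over all genes. In 35 members CaCl2 and sham arrays did not overlap, beside 26.5% of all genes. Of the arrays compared, sham replicates 2 and 3 and CaCl2 replicates 1 and 2 were among the dim arrays. The 13 were Acta2, Actg2, Myl6, Cald1, Tpm2, Mylk, Ppp1r14a, Hspb6, Des, Csrp1, Actn1, Flna and Itga7. No SRF and myocardin regulator, channel or receptor gene was among them. Of these 13, 11 were also lower in WT at day 42, which was 84.6% of the uMT list and 55% of the WT list, on separate arrays.

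Acta2 read 9.90, 10.09 and 11.05 in sham and 7.55, 8.81 and 9.34 after CaCl2, a fall of 1.78 ± 0.53 (adjusted p = 0.0445) whose call held in 18 of 43 alternative settings. The call of Mylk held in 14 of 43, and those of the other 11 genes in 31 or more. Many of these settings leave out 1 array of a group not compared, which cannot alter the change. Actg2 went from 5.44, 6.17 and 6.31 to 2.77, 4.01 and 4.79, a fall of 2.12 ± 0.58 (adjusted p = 0.0293) and the largest among the actins and myosins. Tpm2 went from 7.24, 7.15 and 7.79 to 4.60, 5.25 and 6.17, a fall of 2.05 ± 0.47 (adjusted p = 0.00893). Replicate 1 was the lowest CaCl2 array in each and replicate 3 the highest. The 75th percentile of intensity was 82.3, 141 and 174 on CaCl2 replicates 1, 2 and 3. Whether brightness bears on this order was not tested.

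Ppp1r14a had the largest fall of the 13, from 5.53, 5.68 and 6.17 to 2.83, 3.61 and 4.30 (-2.21 ± 0.56, adjusted p = 0.0190). Des read 2.13, 1.24 and 2.35 in sham and -1.55, -0.24 and 1.05 after CaCl2 (-2.15 ± 0.61, adjusted p = 0.0344). Itga7 read 5.14, 5.21 and 5.85 against 2.995, 3.92 and 4.41 (-1.62 ± 0.47, adjusted p = 0.0369). None of the 3 overlapped between groups.

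Several genes lay as far from sham as these but missed the threshold. Myh11 read 7.33, 7.95 and 8.33 against 5.64, 5.33 and 6.24 (-2.14 ± 0.68, adjusted p = 0.0635). Cnn1 read 8.54, 8.49 and 8.85 against 5.60, 6.83 and 7.62 (-1.94 ± 0.60, adjusted p = 0.0546). Kcnmb1 read 2.14, 1.30 and 2.37 against -1.66, -0.04 and 1.01 (-2.16 ± 0.71, adjusted p = 0.0707). All 3 showed no overlap.

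Tagln and Npnt lay closer to sham. Tagln stood at 9.96, 10.30 and 10.89 against 8.78, 9.23 and 9.62 (-1.18 ± 0.52, adjusted p = 0.208). Npnt stood at 1.81, 1.097 and 2.01 against 0.11, -0.53 and 0.82 (-1.51 ± 0.81, adjusted p = 0.336).

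Among the regulators, Myocd read 2.35, 2.40 and 3.33 in sham and 0.01, 0.92 and 1.13 after CaCl2 (-2.01 ± 0.67, adjusted p = 0.0771). Srf read 2.13, 2.18 and 2.48 against 1.20, 1.52 and 1.58 (-0.83 ± 0.30, adjusted p = 0.110). Mkl1 read 2.99, 3.16 and 3.21 against 3.70, 3.67 and 3.40 (0.47 ± 0.26, adjusted p = 0.354). Mkl1 was again higher on every CaCl2 array than on any sham array, without a call. Mkl2 read 3.64, 3.99 and 3.18 against 3.46, 3.46 and 3.37 (-0.18 ± 0.26, adjusted p = 0.819). Leaving out 1 array at a time gave 0 to 26 calls, the fewest without uMT sham day 42 replicate 3 and the most without the dim WT array, and the slide block gave 0.

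Whether the genotypes responded differently was tested as the difference of their CaCl2 effects. At day 7 it was called in 0 of 40 members and in 0 of 23268 genes, so no member can be said to differ at this precision. The members' differences were positive in 39 of 40, that is, higher relative to sham in uMT, with a median of 1.14. In limma 8 members had an unadjusted p under 0.05, beside 981 of all 23268 genes. Among the 8 was Actn1, the crosslinker alpha-actinin 1, at 1.58 ± 0.49 (limma, adjusted p = 0.935). Hspb6 and Itga7 differed by 1.82 ± 0.77 and 1.78 ± 0.66. Without uMT CaCl2 day 7 replicate 1 the median was 1.95, still with 0 calls. At day 42 the median difference was -0.00436 with 20 positive and 20 negative, and 0 members were called beside 0.107% of all genes. Npnt had the largest, 2.55 ± 1.14 (limma, adjusted p = 0.774), with the dim WT sham array included.

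From day 7 to day 42 after CaCl2 no member was called in either genotype, beside 0.550% of all genes in WT and 0.971% in uMT. In limma, 2 members had an unadjusted p under 0.05 in WT and 3 in uMT, beside 1413 and 2848 of all 23268 genes. The median was 0.42 in WT, with 32 of 40 above 0, and -0.35 in uMT, with 31 of 40 below 0. Without uMT CaCl2 day 7 replicate 1 the uMT median was -1.06 and 1 member was called lower.

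The operation alone was the background to these values. WT sham aorta at day 7 differed from unoperated aorta by a median of -0.51 over the members, with 38 of 40 below 0 and 0 called (2.37% of all genes called), and 27 members did not overlap (31.0% of all genes). Medians were -0.45 for WT sham day 42 with 0 called beside 0.168% of genes, and -0.43 for uMT sham day 7 with 0 called beside 2.54%. For uMT sham day 42 against unoperated uMT, 17.4% of all genes were called (10.1% lower and 7.29% higher) and 2 members: Ppp1r12b was higher by 1.59 ± 0.53 (adjusted p = 0.0416) and Parva lower by 0.60 ± 0.20 (adjusted p = 0.0396). In unoperated aorta, uMT differed from WT in 0 members, beside 0.0903% of genes, with a median of -0.22. In limma, 1, 3, 5 and 4 members had an unadjusted p under 0.05 in the 4 of these comparisons without a call, in the order given. The same held for 2086, 5409, 3778 and 2772 of all 23268 genes. With unoperated arrays in place of sham as control, the 4 CaCl2 comparisons called 37 and 35 members in WT and 13 and 26 in uMT, beside 20.8%, 16.0%, 16.1% and 31.0% of all genes.

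Other genes of smooth muscle were also lower. Of 31 measured genes in a further list, 17, 13, 1 and 7 were lower in the 4 comparisons (WT day 7, WT day 42, uMT day 7, uMT day 42) and 0 higher, beside 3.61%, 3.59%, 0.391% and 1.71% of all genes called lower. At day 7 in WT the largest falls were Ryr2, a calcium release channel (-3.39 ± 0.77, adjusted p = 0.0107), the actinin-binding Pdlim3 (-2.92 ± 0.61, adjusted p = 0.00749), Jph2, a junctophilin (-2.76 ± 0.65, adjusted p = 0.0129), and Mrvi1, a substrate of Prkg1 (-2.46 ± 0.68, adjusted p = 0.0310). The CaCl2 mean of Ryr2 was low, at -4.19, and whether it was above background is not given.

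Srf also drives immediate early genes through other cofactors. Of 11 measured, 1 was lower in WT at day 7, Srf itself, 0 were called in WT at day 42 or uMT at day 7, and Egr2 was higher in uMT at day 42 (2.32 ± 0.57, adjusted p = 0.0148). Of 20 other transcription factors known in smooth muscle, Tcf21, Hey2 and Mef2c fell in WT at day 7 (-1.97, -1.64 and -1.37). At day 42 Meox1, Prrx1 and Elk3 rose in WT (2.04, 1.58 and 1.101), and in uMT Meox1 rose (1.99) and Hey2 and Mef2c fell (-1.67 and -1.25). Among all genes 6.59%, 10.4%, 0.894% and 6.33% were called in either direction (WT day 7, WT day 42, uMT day 7, uMT day 42). Counts this small are not read as a result about these lists.

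Genes that smooth muscle cells switch on when they lose the contractile state, which fibroblasts and macrophages express too, gave calls in both directions. Of 16, 3, 6, 1 and 6 were higher and 1, 1, 0 and 0 lower in the same order of comparisons, beside 2.98%, 6.79%, 0.503% and 4.62% of all genes called higher. Those called lower were 3.61%, 3.59%, 0.391% and 1.71% of all genes. Sox9, a cartilage factor, was called in all 4 (2.63, 2.69, 2.65 and 3.50). Its sham means were low, at -4.23, -4.28, -4.34 and -4.86. Whether they were above background is not given, so the sizes of these changes are uncertain. Spp1, osteopontin, rose by 6.92 ± 1.17 in WT (adjusted p = 0.000785) and 5.30 ± 1.17 in uMT (adjusted p = 0.00749) at day 42. Timp1 rose in WT at day 7 and at day 42 in both genotypes (1.76, 2.58 and 3.48). Myh10, a non-muscle myosin, was the gene called lower on this list in WT at both days (-1.51 ± 0.44 at day 7, adjusted p = 0.0384).

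Marker levels of other cells moved with CaCl2. Among all genes 2.98%, 6.79%, 0.503% and 4.62% were called higher in the 4 comparisons, and 3.61%, 3.59%, 0.391% and 1.71% lower. Of 14 macrophage genes 2, 11, 0 and 8 were higher, of 7 neutrophil genes 2, 3, 0 and 3, and of 10 fibroblast genes 0, 4, 0 and 7. The macrophage mean level was 3.50 to 3.68 in WT sham day 7 and 4.05 to 4.51 in WT CaCl2 day 7, and 1.13 to 2.99 in uMT sham day 42 and 3.71 to 4.19 in uMT CaCl2 day 42. The summed linear level of these genes ran from 328 to 377 and from 442 to 585 in the first pair, and from 424 to 702 and from 607 to 907 in the second. In WT at day 42 the macrophage mean level was 0.75 to 3.15 in sham, the group that holds the dim array, and 3.92 to 4.44 after CaCl2. Their summed level ran from 271 to 296 and from 409 to 596. Counts of these lists without the dim array are not given. Of 12 skeletal muscle genes 4, 5, 2 and 3 were lower, with Casq1 and Tcap called in all 4 comparisons. The 10 endothelial markers gave 0 calls at day 7 in either genotype, 1 higher and 1 lower in WT and 2 lower in uMT at day 42. The 7 pericyte markers gave 1 lower, 1 higher, 1 higher and 0. The 9 white adipocyte markers gave 1 call, lower, in uMT at day 42. The 5 brown adipocyte markers gave 1 and 2 lower in WT and 1 higher in uMT at day 42. Counts this small are not read as a shift of these cells. Of 7 measured B cell markers 0, 3, 0 and 0 were higher, and 0 were called for the difference between genotypes at either day. Whether these shifts account for any of the members' falls was not tested.

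**Figure D5:**
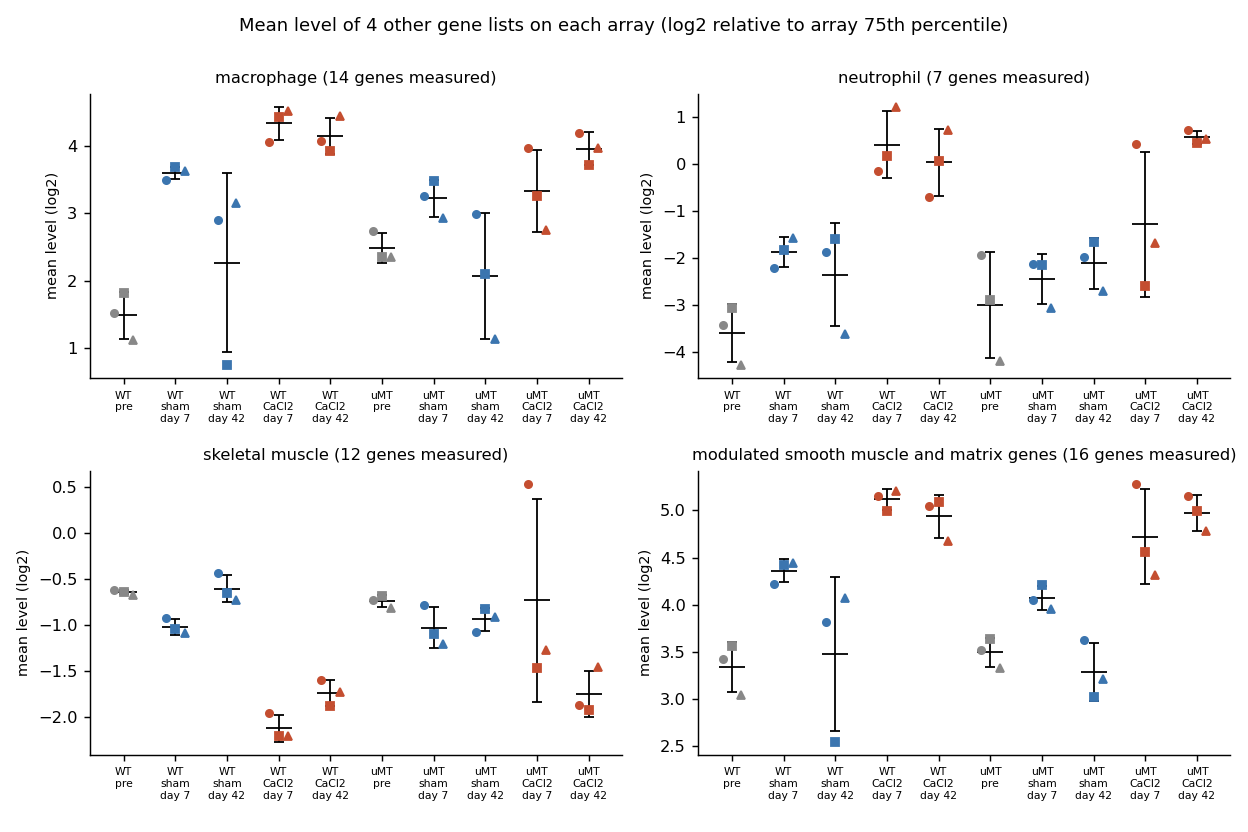
Mean level (y axes, log2 relative to the array's 75th percentile) of the measured macrophage, neutrophil, skeletal muscle and modulated smooth muscle genes on every array of the 10 groups (x axes). Points are arrays and black bars the mean ± SD. uMT CaCl2 day 7 replicate 1 is highest in skeletal muscle genes, at 0.54, and above replicates 2 and 3 in neutrophil and macrophage genes.

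For 18 of the 40 members several probes were kept, and they did not always share a call. At day 7 in WT the calls of a gene's probes differed for Ldb3, Mkl1, Mylk, Parva, Ppp1r12a, Ppp1r12b, Smtn, Srf, Synm and Tpm1, and the signs for Ppp1r12b and Tpm1. At day 42 in WT the calls differed for Cald1, Kcnma1, Npnt, Parva, Ppp1r12b, Synm, Synpo2 and Tpm1, and the signs for Kcnma1, Mkl2 and Synm. For Kcnma1 one probe fell by 1.56 ± 0.40 (adjusted p = 0.0156) while the brightest gave 0.05 ± 0.42. In uMT the calls differed at day 42 for Cald1, Mylk and Parva and the signs for Mkl2 and Ppp1r12b. At day 7 no probe of these genes was called, and signs differed in 7: Kcnma1, Parva, Ppp1r12b, Smtn, Srf, Synm and Tpm1.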

How the data were processed

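Total RNA was measured on 30 one-colour Agilent arrays (Cy3), 1 per sample, in 10 groups of 3 taken from the labels. Per the file headers, the authors' deposited spot intensities came from Agilent Feature Extraction 10.7.1.1 (the submitters' processing notes name 9.5.1.1), which subtracts background, and probe coordinates are mm9. The authors also deposited a table of processed intensity values, used as an alternative. Its columns followed their own arrays (lowest r = 0.979). The records name both RNeasy and SV Total RNA kits.

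Unflagged spots of a probe were averaged (55657 probes, 24 left out), and the log2 of the deposited intensity was centred on each array's 75th percentile. A probe was kept when well above background on all 3 arrays of at least 1 group (33228), and each gene was represented by the brightest of its kept probes. No spot was saturated. limma 3.58.1 in R 4.3.3 estimated the 10 group means from all 30 arrays together, leaving 20 residual degrees of freedom. Moderated p-values were adjusted by Benjamini-Hochberg separately for the 13 comparisons, with a threshold of 0.05. The fit was also run on simulated data with independent normal noise and 1 spread per gene for all groups. No slide effect or dim array was simulated, so that run does not bear on either. Where every array of the dimmer group was below background, the fold uses, per array, the dimmest signal that counted as well above background (or the probe's own, if higher) and is called "at least". Promoter sequences are RefSeq's (GRCm38.p6).

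The members and the other lists were chosen with earlier results of these data known. Values of every array are given for Acta2, Myh11, Tagln, Cnn1, Myocd, Srf, Mkl1, Mkl2, Kcnmb1 and Npnt and, in each comparison of CaCl2 with sham, for the member of each role with the largest called change without overlap. Members called against the majority or with disagreeing probes, and up to 4 called genes of another list, are named. The gene behind the single call of the further smooth muscle list in uMT at day 7 is not reported here. Alternatives were other background corrections, normalizations, filters and probe rules, fewer groups or arrays, unoperated controls, and slide or replicate number as a block. Same-numbered arrays did not deviate together (r of deviations -0.378 to 0.290, in 0 comparisons all over 0.1), so numbers were not treated as pairs.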

Additional observations from a re-analysis of the deposited data

Results flagged for a closer look

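Mkl2, a cofactor of Srf, was set apart because the genotypes moved in opposite ways at day 42: all 3 WT CaCl2 arrays lay above the WT sham mean and all 3 uMT CaCl2 arrays below the uMT sham mean. The difference between genotypes was -0.51 ± 0.36 on the log2 scale and was not called (limma, adjusted p = 0.774). The WT sham mean includes the dim array, which read 2.64 against 3.69 and 3.34 on the other arrays of its group, and without that array the WT change was 0.04 ± 0.23. Such opposite directions were looked for in 40 members at 2 days.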

How the results depend on the processing

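The direction of the programme held: the median member change stayed below 0 in all 4 comparisons of CaCl2 with sham under every alternative run, while the number of calls depended on how the spread was estimated. Of the values of members called in the main comparisons under the alternatives, 0 changed sign and 185 of 1363 in WT day 7, 139 of 945 in WT day 42 and 139 of 559 in uMT day 42 lost their call. Many of these alternatives leave out 1 array of a group not compared, which cannot alter the change. The shares therefore overstate how firm the calls are. In WT day 7 each slide block lost 31 of 31, and leaving out WT CaCl2 day 7 replicate 3 lost 25. For CaCl2 against sham in WT at day 7 (31 calls), slide as a random or fixed block gave 0. In WT at day 42 (21 calls), only the groups compared gave 0, a random slide block 9, a fixed one 4, unoperated controls 35 and slide 3 alone 12 (1 sham array against 3 CaCl2 arrays). In uMT at day 7 (0 calls), normexp with quantile normalization gave 1, leaving out arrays with under 50% of probes well above background 8, unoperated controls 13, and a random slide block without the array alone on its slide, chosen after seeing the data, 12. In uMT at day 42 (13 calls), quantile normalization and the authors' table each gave 8, no filter 7, only the groups compared 2, without the dim arrays 0 (1 array a side is left), a random slide block 0, unoperated controls 26, and the block without the lone array 33. The estimated slide correlation was 0.782 with that array and -0.0687 without it. In uMT, day 42 against day 7 gave 1 with a fixed slide block or the random block without the lone array. For sham against unoperated in WT, day 7 (0 calls) gave 9 with only the groups compared or within slide 2, and 1 with each slide block, and day 42 gave 2 within slide 2, where 1 sham array stands against 3 and is assumed to vary like them, beside 899 genes called. In uMT, day 7 gave 1 with probes averaged and 2 with the random block without the lone array. uMT day 42 (2 calls) gave 2 with a median turned to 0.01 when the percentile was taken over probes detected on all arrays, 1 with probes averaged or a slide block, and 0 with no filter, only the groups compared, no dim arrays or within slide 4. The cause was not tested for any of these. The share of all genes called is not given for most of these fits, so the counts describe the fits and not the members.

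Leaving out 1 array at a time gave 6 to 38 calls (WT day 7), 9 to 30 (WT day 42), 0 to 5 (uMT day 7) and 0 to 26 (uMT day 42), 0 to 1 between days in each genotype, 0 for both differences between genotypes and for unoperated uMT against WT, and 0 to 1, 0 to 5, 0 to 2 and 0 to 4 for sham against unoperated (WT day 7, WT day 42, uMT day 7, uMT day 42). With the replicate block, a fit that pairs arrays by number, uMT sham day 42 against unoperated gave 1 call, and no other count moved by over 1.5 times (30, 19, 0 and 11 for CaCl2 against sham). A fixed slide block could not be fitted for CaCl2 against sham in uMT or for the genotype differences.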
